A study of Mus musculus with 25 samples.

Results

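Manf, Cdnf, Creld2 and Gdf15 encode 4 secreted proteins tied to stress in the endoplasmic reticulum (ER), and their RNA levels were followed in the mouse retina after intravitreal injection of compounds that act on ATF6 or disturb protein folding. The 4 genes were chosen by symbol, out of 18440 genes listed in all 5 deposited tables, and each was found once in every table and passed the filter on low values described with the methods. No RefSeq gene overlaps a member, but a GENCODE model of Manf runs over Rbm15b and Dcaf1, and which annotation the authors counted with is not given in the sources used here. MANF and CDNF are the 2 members of a family of small ER proteins that are held in the ER lumen and leave it when ER calcium or folding fails, and they act as survival factors for neurons. CRELD2 is a cysteine-rich ER protein that associates with folding enzymes and is released under ER stress. GDF15 is a distant member of the TGF-beta family, cut from its precursor and secreted by stressed cells of many types, and its receptor GFRAL signals through RET in hindbrain neurons.

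ER stress reaches genes of this kind by different routes. ATF6 is an ER membrane protein whose cytosolic part, once cut free in the Golgi, turns on chaperone genes through an element in their promoters, and IRE1 acts through the spliced factor XBP1. PERK slows translation and thereby favours ATF4, which turns on genes of amino acid supply and stress. Manf and Creld2 are known as targets of the ATF6 and XBP1 branches, and Gdf15 as a target of ATF4, of its partner CHOP and, separately, of p53. Cdnf is known to respond less to ER stress than its relative.

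All mice carried the wild-type genotype on the C57BL/6J background and were injected at postnatal day 30, in both eyes, with 1 µL. The groups were retinas given tunicamycin, Ceapin-A7 or AA147, each at 10 µM, and 2 sets of vehicle retinas, with 5 libraries in every group. Tunicamycin blocks the first step of N-glycosylation and was the positive control of the series, Ceapin-A7 keeps ATF6 from being activated, and AA147 activates it. Both vehicle sets are labelled as PBS, but the protocol describes saline with 0.05 to 0.1% DMSO, in which the compounds were dissolved as well. A time of 24 h stands in the names of the compound columns only, and eyes were taken at 24 h, 3 d and 7 d in the series, so time and compound cannot be told apart. No label says whether each library is a separate animal, and the p-values therefore cover only the variation among libraries, possibly technical. Tunicamycin, Ceapin-A7 and vehicle set 2 share a gene list of 19102 genes and AA147 and vehicle set 1 one of 18676 genes, and each compound was set against the vehicle set of its own list. The tissue was whole retina, in which fewer cells of a type and less RNA per cell cannot be told apart. Sag, which encodes the photoreceptor arrestin, had medians of 1834 to 2584 FPKM over the 5 groups, in tissue labelled as retina.

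Several libraries stood apart from the rest of their groups. The depth, estimated roughly from the steps between low values, was 15.2 to 25 M fragments per library. Vehicle sets 2 and 1 differed in 6145 of 13117 tested genes (46.8%, limma adjusted p under 0.05; 26.3% higher and 20.5% lower in vehicle set 2), so values of the 2 sets are not pooled. Vehicle set 2 was itself uneven: the mean log2(FPKM + 1) of 24 PERK-ATF4 target genes was 4.2 and 4.34 in its libraries 4 and 5, against 3.18 to 3.45 in its libraries 1 to 3. Lens genes varied within every group, and the summed level of 12 lens markers ran from 4.77 to 13428 FPKM in tunicamycin retinas, 84.27 to 8745.5 FPKM in Ceapin-A7 retinas, 9.59 to 1016.5 FPKM in AA147 retinas, 7.96 to 4851.1 FPKM in vehicle set 2 and 94.54 to 1354.6 FPKM in vehicle set 1. The protocol has the lens removed.

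The promoters of 3 of the 4 members were read from RefSeq's table for the mouse build GRCm38.p6, and Manf was not matched. They are shown because the members are grouped below by the branch that is known to drive them, and the letters of that branch's element can be looked for directly. Each run holds the 250 bases before the annotated start, 5′ to 3′ along the gene, with matched motif letters in capitals. Creld2 lies on chromosome 15 (chr15:88819396-88819645, plus strand), Cdnf on chromosome 2 (chr2:3512815-3513064, plus strand) and Gdf15 on chromosome 8 (chr8:70632457-70632706, minus strand).
Creld2: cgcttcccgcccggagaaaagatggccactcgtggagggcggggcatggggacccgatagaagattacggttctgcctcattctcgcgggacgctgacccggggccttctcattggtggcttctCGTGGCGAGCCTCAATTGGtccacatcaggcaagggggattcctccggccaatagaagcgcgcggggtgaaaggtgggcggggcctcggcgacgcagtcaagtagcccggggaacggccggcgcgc
Cdnf: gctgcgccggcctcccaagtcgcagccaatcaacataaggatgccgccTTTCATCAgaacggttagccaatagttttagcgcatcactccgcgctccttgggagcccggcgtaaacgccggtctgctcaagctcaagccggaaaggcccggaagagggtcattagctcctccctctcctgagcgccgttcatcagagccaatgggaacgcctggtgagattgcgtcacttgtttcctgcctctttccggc
Gdf15: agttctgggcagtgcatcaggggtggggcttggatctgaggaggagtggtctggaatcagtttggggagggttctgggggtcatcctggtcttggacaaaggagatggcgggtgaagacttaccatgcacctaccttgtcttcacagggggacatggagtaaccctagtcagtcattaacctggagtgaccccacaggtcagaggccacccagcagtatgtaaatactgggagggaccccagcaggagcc

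Motifs were searched on both strands in the 300-base windows of the table, which run from 250 bases before to 50 after each start. The 3 motifs were the ER stress element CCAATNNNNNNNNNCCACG, to which ATF6 and NF-Y bind, the XBP1 core TGACGTGG and the ATF4 core TGATGNAA. Creld2 holds the ER stress element on the reverse strand, 126 to 108 bases before the start, as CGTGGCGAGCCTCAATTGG. The element was found in 39 of 32851 windows (0.119%), and in the windows of 8 of 15 genes of a list of ER chaperones and ATF6 targets that have one, Hspa5, Hsp90b1 and Dnajc3 among them. The XBP1 core was in 0.676% of all windows and in no member's window. Cdnf holds the ATF4 core once, 202 to 195 bases before the start on the reverse strand, as TTTCATCA, and so did 3.97% of all windows and 9 of 21 genes of the PERK-ATF4 list that have a window. Gdf15 has a second annotated start, and none of the 3 motifs was in either of its windows. A match in these letters is a description of the sequence and was not set against binding.

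In tunicamycin retinas Manf and Creld2 were higher than in vehicle set 2, and Cdnf was not distinguishable from it. Gdf15 was higher by limma only. Its groups overlapped, and its exact permutation p was 0.0556 (0.222 adjusted over the 4 members and 3 compounds). The ratio of group means was 3.73 for Manf, 4.43 for Creld2 and 3.42 for Gdf15. For Gdf15 this ratio was lowered by 2 high vehicle libraries and its ratio of medians was 9.79. The comparison addresses how the positive control moves genes of ER stress. By limma on log2(FPKM + 1), fitted across all genes and adjusted after Benjamini-Hochberg, 3 of the 4 members were called, all higher. Gdf15 entered this count through tunicamycin libraries and libraries 4 and 5 of vehicle set 2, the only ones in which it reached 1 FPKM. Of all 13117 tested genes 8.7% were called in this comparison, 773 of them higher (5.89%) and 368 lower (2.81%). That split depended on the scaling, with 567 higher and 572 lower after quantile normalization and 581 higher and 558 lower after median-ratio scaling.

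Manf, an ER lumen protein with chaperone-like activity, had 686.93, 242.98, 113.14, 262.30 and 196.36 FPKM in tunicamycin libraries 1 to 5. In vehicle set 2 it had 75.38, 76.54, 71.33, 85.69 and 93.67 FPKM. Every tunicamycin library lay above every library of vehicle set 2. The share of all genes that separated these groups in this way was not counted. The 5 tunicamycin values were spread widely, with library 1 far above the rest and library 3 just above the vehicle range. The means were 300.3 ± 224 FPKM in tunicamycin retinas and 80.5 ± 9.03 FPKM in vehicle set 2 (SD, n = 5 each). The log2 difference was 1.63 ± 0.27 (SE, 95% confidence interval 1.08 to 2.18, limma adjusted p = 0.000472). The exact permutation test gave p = 0.00794, the smallest that 5 against 5 libraries allow (0.0476 adjusted over the 4 members and 3 compounds). The limma SE rests on a spread shared by all 5 groups, and with tunicamycin and vehicle set 2 alone in the fit the same difference had a limma adjusted p of 0.085.

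Creld2, the ER protein released with misfolding, had 155.11, 55.43, 26.29, 59.19 and 40.15 FPKM in tunicamycin libraries 1 to 5. In vehicle set 2 it had 13.93, 15.82, 14.49, 15.45 and 16.23 FPKM. The groups did not overlap, and the vehicle libraries lay close together. Here too the share of all genes without overlap was not counted. The means were 67.2 ± 50.8 FPKM in tunicamycin retinas and 15.2 ± 0.952 FPKM in vehicle set 2 (SD, n = 5 each). The log2 difference was 1.82 ± 0.25 (SE, 95% confidence interval 1.29 to 2.34, limma adjusted p = 7.1e-05), and the exact permutation p was 0.00794 (0.0476 adjusted). This call held with the 2 groups alone in the fit (limma adjusted p = 0.0484). Creld2 ranked 13 and Manf 17 among all tested genes by the size of the increase.

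Gdf15, the stress cytokine, had 13.08, 6.07, 1.2, 3.76 and 7.40 FPKM in tunicamycin libraries 1 to 5. In vehicle set 2 it had 0.62, 0.32, 0.48, 3.35 and 4.43 FPKM. The groups overlapped: libraries 4 and 5 of vehicle set 2 were high and lay above tunicamycin library 3, and 3 of 5 tunicamycin libraries lay above every vehicle library. The means were 6.30 ± 4.46 FPKM in tunicamycin retinas and 1.84 ± 1.91 FPKM in vehicle set 2 (SD, n = 5 each). The log2 difference was 1.37 ± 0.37 (SE, 95% confidence interval 0.61 to 2.14, limma adjusted p = 0.0216), whereas the exact permutation test gave p = 0.0556 (0.222 adjusted). The scale with 1 FPKM added understates the change of a gene this low. Gdf15 passed the filter on low values only through the 5 tunicamycin libraries and libraries 4 and 5 of vehicle set 2.

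The Gdf15 call moved with single libraries more than the other members' calls did. Without libraries 4 and 5 of vehicle set 2, an alternative chosen after the values were seen, the log2 difference was 2.07 (limma adjusted p = 0.00053), against 1.74 for Manf and 1.85 for Creld2. It was no longer called without tunicamycin library 1 (1.08, limma adjusted p = 0.0852) or without library 1, 2 or 3 of vehicle set 2 (1.24, 1.16 and 1.2, limma adjusted p = 0.0592, 0.0514 and 0.0596). It was not called either with tunicamycin and vehicle set 2 alone in the fit (limma adjusted p = 0.259) or with the groups of its gene list alone (0.105). Chac1, an ATF4 target that breaks down glutathione, showed the same vehicle libraries standing out, at 19.66 and 13.93 FPKM in libraries 4 and 5 of vehicle set 2 and 3.54, 3.57 and 5.09 FPKM in libraries 1 to 3. Hspa5, which encodes the ER chaperone BiP, was 138.04 and 161.86 FPKM in those libraries 4 and 5 and 106.39 to 110.20 FPKM in libraries 1 to 3.

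Cdnf, the paralog of Manf, had 2.04, 1.55, 1.79, 1.68 and 2.12 FPKM in tunicamycin libraries 1 to 5. In vehicle set 2 it had 1.31, 1.45, 1.25, 1.94 and 1.74 FPKM. The groups overlapped through libraries 4 and 5 of vehicle set 2, whereas its libraries 1 to 3 lay below every tunicamycin library. Of the tunicamycin libraries 2 lay above every vehicle library. The log2 difference was 0.16 ± 0.09 (SE, 95% confidence interval -0.02 to 0.34, limma adjusted p = 0.249), and the exact permutation p was 0.111 (0.305 adjusted). The interval leaves out a change as large as that of Manf, and the scale with 1 FPKM added shrinks it at this level. The Manf to Cdnf ratio, chosen for testing after the values were seen, was 63.2 to 337 in tunicamycin retinas and 44.2 to 57.5 in vehicle set 2, with no overlap (exact permutation p = 0.00794, 0.0185 adjusted over the 7 ratio tests). The longest run of bases that transcripts of Manf and Cdnf share exactly is 17, and that of Creld2 and its paralog Creld1 is 16.

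**Figure D1:**
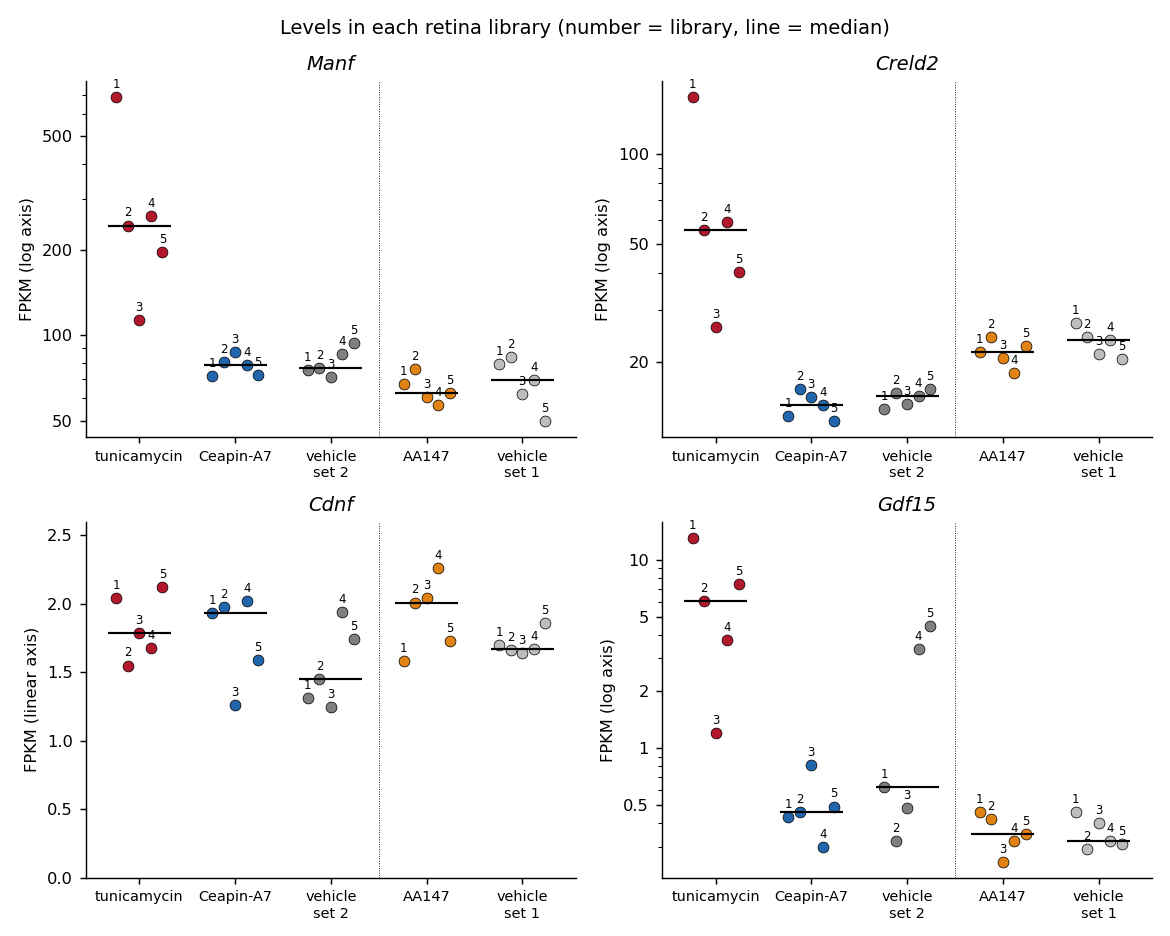
FPKM of Manf, Creld2, Cdnf and Gdf15 in each of the 25 libraries (1 point per library, with its number; line: group median; log axes except for Cdnf, which has a linear axis from 0). Manf and Creld2 separate tunicamycin from vehicle set 2 fully, Gdf15 overlaps through vehicle libraries 4 and 5, and Cdnf lies between 1.25 and 2.26 FPKM in every library.

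The size of the response differed among tunicamycin libraries, and in the same order for several genes. From high to low the order of libraries was 1, 4, 2, 5 and 3 for Manf, for Creld2, for Hspa5 and for Chac1. For Gdf15 it was 1, 5, 2, 4 and 3, which was also the order of the lens crystallin Cryaa, at 6233.76, 2737.35, 2655.7, 51.98 and 0.97 FPKM. Library 1 was thus the highest and library 3 the lowest for Manf, Creld2, Gdf15 and Cryaa alike, whereas library 4 was second for Manf and Creld2 with a low Cryaa. The part of lens RNA in the differences was not tested. In vehicle set 2 Cryaa was 2422.27, 11.3 and 2.92 FPKM in libraries 1, 5 and 3, where Manf was 75.38, 93.67 and 71.33 FPKM. In Ceapin-A7 retinas Cryaa reached 3972.98 FPKM in library 1, where Manf was 72.03 FPKM, the lowest of that group. In AA147 retinas library 2 was the highest for Manf, for Creld2 and for Cryaa. In vehicle set 1 library 5 was the highest for Cryaa and the lowest for Manf and Creld2. None of the 12 lens markers passed the test in tunicamycin retinas, although their median log2 difference was 1.32.

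The Manf to Creld2 ratio was 4.30 to 4.89 in tunicamycin libraries and 4.84 to 5.77 in vehicle set 2, a small shift that overlapped (exact permutation p = 0.0159, 0.0278 adjusted over the 7 ratio tests). The Manf to Hspa5 ratio was 0.452 to 0.494 in tunicamycin libraries and 0.579 to 0.696 in vehicle set 2 with no overlap. Its exact permutation p was 0.00794 (0.0185 adjusted), so the chaperone differed by more than Manf did. In vehicle set 1 this ratio was 0.369 to 0.493 and in AA147 retinas 0.434 to 0.499, ranges that overlap that of tunicamycin. These ratios were chosen for testing after the values were seen. For Creld2 to Hspa5 the exact permutation p was 0.103 (0.144 adjusted).

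In Ceapin-A7 retinas none of the 4 members differed detectably from vehicle set 2. Ceapin-A7 was compared with vehicle to see what an inhibitor of ATF6 does in the retina. By limma 0 of 4 members and 0 of 13117 genes were called (0%), with 1615 genes at an unadjusted p under 0.05, and by exact permutation the members had p of 0.23 to 0.667. Manf had 72.03, 80.53, 87.54, 78.50 and 72.19 FPKM in Ceapin-A7 libraries 1 to 5, within the vehicle range of 71.33 to 93.67 FPKM. Its log2 difference was -0.04 (95% confidence interval -0.59 to 0.51, limma adjusted p = 0.967). Creld2, which holds the ER stress element, had 13.22, 16.30, 15.25, 14.35 and 12.72 FPKM. Of these values 2 lay below the lowest vehicle library and 1 above the highest. The log2 difference of Creld2 was -0.08 (95% confidence interval -0.60 to 0.45, limma adjusted p = 0.927). The intervals for Ceapin-A7 rest on the spread shared by all 5 groups, which includes the widely spread tunicamycin libraries.

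Cdnf had 1.93, 1.98, 1.26, 2.02 and 1.59 FPKM in Ceapin-A7 libraries 1 to 5, and its log2 difference was 0.12 (95% confidence interval -0.06 to 0.30, limma adjusted p = 0.597). Gdf15 had 0.43, 0.46, 0.81, 0.30 and 0.49 FPKM, all below the high vehicle libraries 4 and 5 and overlapping the other 3. Its log2 difference was -0.67 (95% confidence interval -1.43 to 0.09, limma adjusted p = 0.456), and 0.02 without libraries 4 and 5 of vehicle set 2. The same libraries bear on the PERK-ATF4 list, in which 23 of 23 tested genes had a negative difference in Ceapin-A7 retinas and 0 were called, with a median of -0.35 beside 0.00 over all tested genes. Without those 2 vehicle libraries the list's median was 0.01. The share of all genes with a negative difference was not counted.

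In AA147 retinas none of the 4 members differed detectably from vehicle set 1. This comparison asks what an activator of ATF6 does to the same genes. By limma 0 of 4 members and 0 of 13117 genes were called (0%), with 246 genes at an unadjusted p under 0.05, and by exact permutation the members had p of 0.127 to 0.968. Manf had 67.15, 76.02, 60.47, 56.77 and 62.78 FPKM in AA147 libraries 1 to 5 and 78.83, 83.89, 62.07, 69.48 and 49.94 FPKM in vehicle set 1. The groups overlapped, with the lowest value in the vehicle set. The log2 difference of Manf was -0.07 (95% confidence interval -0.62 to 0.48, limma).

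Creld2 had 21.72, 24.26, 20.71, 18.47 and 22.65 FPKM in AA147 libraries 1 to 5 and 27.05, 24.32, 21.27, 23.82 and 20.50 FPKM in vehicle set 1. Its log2 difference was -0.11 (95% confidence interval -0.64 to 0.41, limma), so that the upper bound lay below the increase seen for tunicamycin. Cdnf had 1.58, 2.01, 2.04, 2.26 and 1.73 FPKM in AA147 retinas and 1.70, 1.66, 1.64, 1.67 and 1.86 FPKM in vehicle set 1, where the first 4 libraries lay close together. Its log2 difference was 0.11 (95% confidence interval -0.07 to 0.29, limma). Gdf15 was at the edge of detection in both groups, with 0.46, 0.42, 0.25, 0.32 and 0.35 FPKM in AA147 retinas and 0.46, 0.29, 0.40, 0.32 and 0.31 FPKM in vehicle set 1. At the median of the roughly estimated depths its lowest value corresponds to about 7.5 fragments. Its log2 difference was 0.00 (95% confidence interval -0.76 to 0.76, limma). The width of this interval, as for the other members, rests on the spread shared by all 5 groups and not on these groups alone. The limma adjusted p of each member was 1.0 here.

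**Figure D2:**
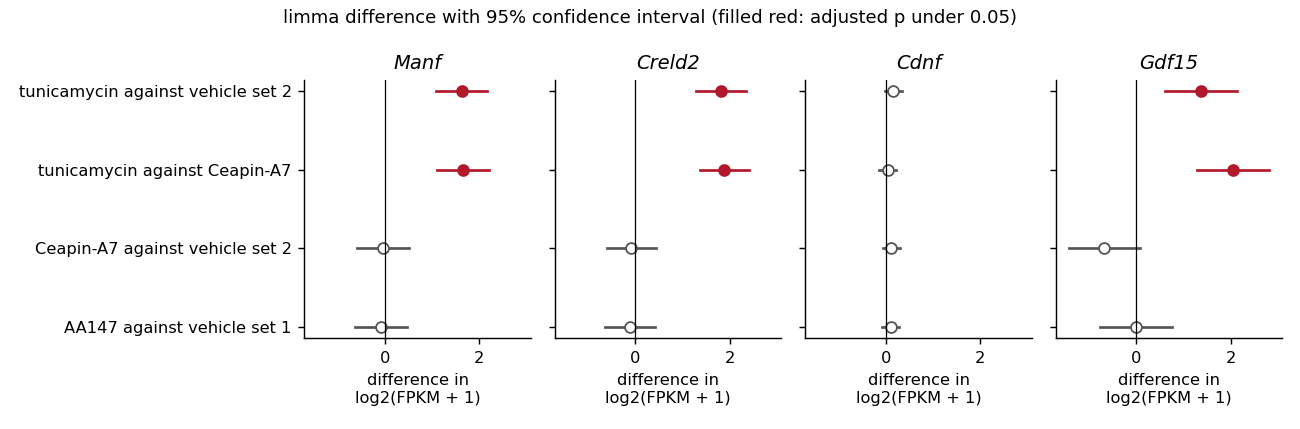
limma difference in log2(FPKM + 1) of each member in 4 comparisons, compound minus vehicle or tunicamycin minus Ceapin-A7 (point: estimate; bar: 95% confidence interval; filled red: adjusted p under 0.05). The tunicamycin intervals of Manf, Creld2 and Gdf15 lie above 0, and all intervals for Ceapin-A7 and AA147 include 0.

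The compounds were also set against each other at the matched dose. Tunicamycin and Ceapin-A7 share a gene list and a column time. Tunicamycin retinas were higher than Ceapin-A7 retinas in 3 of the 4 members, by a log2 difference of 1.67 ± 0.27 for Manf (SE, 95% confidence interval 1.12 to 2.22, limma adjusted p = 0.0003), of 1.89 ± 0.25 for Creld2 (1.37 to 2.42, limma adjusted p = 3.77e-05) and of 2.04 ± 0.37 for Gdf15 (1.28 to 2.81, limma adjusted p = 0.00107). Of all tested genes 13.3% were called in this comparison, 8.83% higher and 4.48% lower. The 2 groups did not overlap for any of these 3 genes, each with an exact permutation p of 0.00794, and this held for Gdf15 although it did not against vehicle set 2. The share of all genes without overlap was not counted. Gdf15 was at 0.30 to 0.81 FPKM with Ceapin-A7, and passed the filter only through tunicamycin and libraries 4 and 5 of vehicle set 2. For Cdnf the log2 difference was 0.05 (95% confidence interval -0.13 to 0.23, limma adjusted p = 0.759).

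AA147 and Ceapin-A7, an activator and an inhibitor of the same protein, were compared with each taken relative to its own vehicle set. The difference of the 2 changes was -0.03 for Manf, -0.01 for Cdnf and -0.03 for Creld2, and 0 of 4 members and 0 of 13117 genes were called (0%, limma, with 882 genes at an unadjusted p under 0.05). For Gdf15 it was 0.67 (95% confidence interval -0.40 to 1.75, limma adjusted p = 0.811), and -0.02 without libraries 4 and 5 of vehicle set 2. Taken in the same way, the change with tunicamycin exceeded that with AA147 by 1.70 for Manf (limma adjusted p = 0.0223) and by 1.93 for Creld2 (limma adjusted p = 0.00483), in a comparison that called 1.04% of tested genes, 0.64% in this direction and 0.396% in the other. The Manf call was lost without library 1 of vehicle set 1 (1.65, limma adjusted p = 0.0504) and with the 4 groups concerned alone in the fit (0.0727). For Gdf15 the difference was 1.37 (limma adjusted p = 0.201), called without tunicamycin library 3 (1.74, limma adjusted p = 0.0258) and without libraries 4 and 5 of vehicle set 2 (2.06, limma adjusted p = 0.0167).

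The members were also set side by side in the vehicle sets, across gene lists. Creld2 had 13.93 to 16.23 FPKM in vehicle set 2 and 20.50 to 27.05 FPKM in vehicle set 1, with no overlap, whereas Manf had 71.33 to 93.67 FPKM in vehicle set 2 and 49.94 to 83.89 FPKM in vehicle set 1. With all groups in the fit, limma called 46.8% of all tested genes between these sets, so differences were common. The share of all genes without overlap was not counted. The log2 difference of Creld2 was -0.59 (95% confidence interval -1.11 to -0.06, limma adjusted p = 0.0613), and with the 2 vehicle sets alone in the fit it was called (limma adjusted p = 6.2e-05). That of Manf was 0.24 (limma adjusted p = 0.489). The Manf to Creld2 ratio therefore split the libraries by gene list: it was 4.84 to 5.77 in vehicle set 2 and 2.44 to 3.45 in vehicle set 1 (exact permutation p = 0.00794, 0.0185 adjusted over the 7 ratio tests, chosen after the values were seen). It was 4.30 to 4.89 in tunicamycin retinas and 4.94 to 5.74 in Ceapin-A7 retinas, whose tables share vehicle set 2's gene list, and 2.77 to 3.13 in AA147 retinas. Gdf15 was 0.81 higher in vehicle set 2 on the log2 scale (95% confidence interval 0.05 to 1.57, limma adjusted p = 0.0762) through its libraries 4 and 5, and for Cdnf the difference was -0.10 (limma adjusted p = 0.368). These calls also moved with single libraries. Creld2 was called without tunicamycin library 1 or 3 (limma adjusted p = 0.00133 and 0.0212). The tunicamycin libraries are in neither vehicle set and enter only through the spread shared by all 5 groups. Gdf15 was called without tunicamycin library 1 or 3 (limma adjusted p = 0.0464 and 0.0318) or library 2 or 3 of vehicle set 2 (limma adjusted p = 0.0317 and 0.0413).

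**Figure D3:**
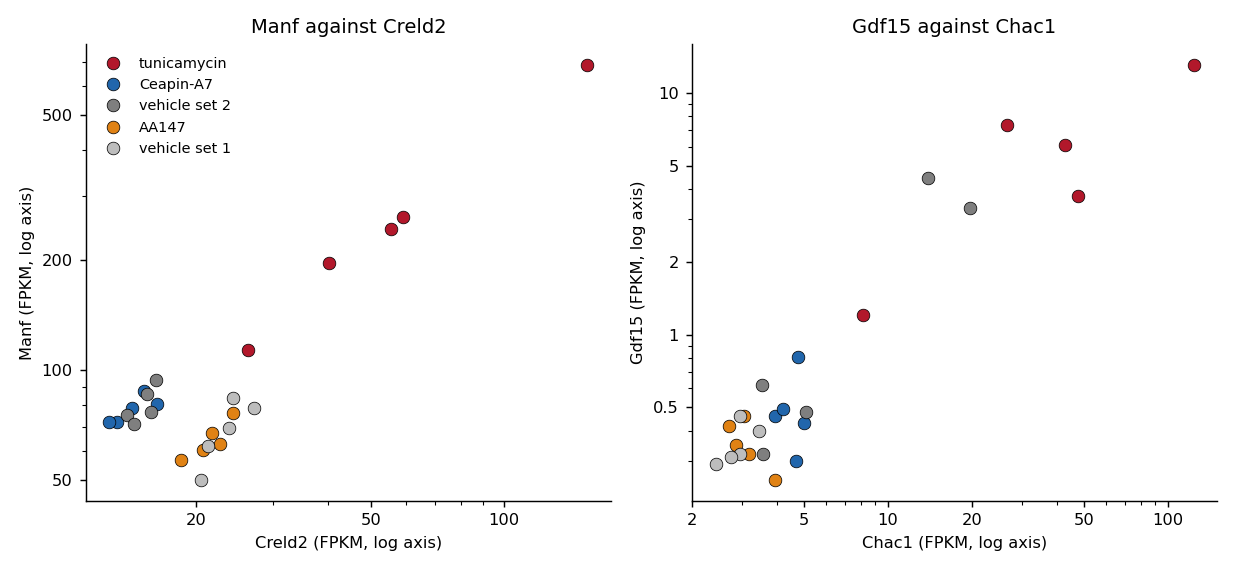
Manf against Creld2 (left) and Gdf15 against the ATF4 target Chac1 (right), in FPKM on log axes, 1 point per library and 1 colour per group. On the left the libraries of AA147 and vehicle set 1 lie at lower Manf for a given Creld2 than those of Ceapin-A7 and vehicle set 2; on the right 2 libraries of vehicle set 2 lie among the tunicamycin libraries.

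Across groups, Manf was the most abundant member by FPKM, which is scaled to length. Gdf15 was the least abundant by its mean with Ceapin-A7, with AA147 and in vehicle set 1, and Cdnf was the least abundant with tunicamycin. In vehicle set 2 the order depended on libraries 4 and 5, with a higher mean for Gdf15 (1.84 FPKM) than for Cdnf (1.54 FPKM) and a lower median (0.62 and 1.45 FPKM). The group means of Manf were 300.3 FPKM with tunicamycin, 78.2 FPKM with Ceapin-A7, 64.6 FPKM with AA147, 80.5 FPKM in vehicle set 2 and 68.8 FPKM in vehicle set 1, and only the tunicamycin retinas stood clear of their neighbours. Those of Creld2 were 67.2 FPKM with tunicamycin, 14.4 FPKM with Ceapin-A7, 21.6 FPKM with AA147, 15.2 FPKM in vehicle set 2 and 23.4 FPKM in vehicle set 1, with the libraries of AA147 and vehicle set 1 all above those of Ceapin-A7 and vehicle set 2. Cdnf had group means of 1.54 to 1.92 FPKM, in an order within which no tested pair differed beyond the spread. With tunicamycin, Gdf15 exceeded Cdnf in 4 of 5 libraries, library 3 being the exception.

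The genes whose log2 levels ran most closely with each member over the 25 libraries were taken by a fixed rule, as a description, since these libraries share groups and tables. For Manf they were Dnajc3, Sel1l, Dnajb9, Aldh1l2 and Edem1, with Pearson r of 0.975 to 0.988. Dnajc3 and Dnajb9 are ER co-chaperones, and Sel1l and Edem1 act in the disposal of misfolded ER proteins. Over the 20 libraries without tunicamycin the values were 0.594 to 0.799. For Creld2 they were Hsp90b1, Hyou1, Pdia4, Dnajb11 and Hspa5, all ER chaperones or folding enzymes, at 0.970 to 0.986 over 25 libraries and 0.785 to 0.964 without tunicamycin. For Gdf15 they were Eif4ebp1, Cdsn, Chac1, Stard5 and Ppp1r15a, at 0.948 to 0.977 over 25 libraries and 0.820 to 0.960 without tunicamycin. Without tunicamycin, Gdf15 exceeded 0.81 FPKM only in libraries 4 and 5 of vehicle set 2 (3.35 and 4.43 FPKM). The part of those libraries in these values was not tested. Eif4ebp1, Chac1 and Ppp1r15a are known ATF4 targets. For Cdnf the closest genes were Utp11, Carmil1, Rpl7, P2rx3 and Rps23, at only 0.589 to 0.729. Manf and Creld2 had r = 0.883 over 25 libraries and -0.278 over the 20 without tunicamycin, which include both gene lists.

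The other genes of the same branches, with the members left out, were described by count beside all tested genes, whose median log2 difference with tunicamycin was 0.01. Of 17 ER chaperones and ATF6 targets, 17 were higher in tunicamycin retinas than in vehicle set 2, with a median log2 difference of 1.18. The largest belonged to Derl3, of ER-associated degradation, at 5.19 to 73.35 FPKM with tunicamycin and 0.74 to 1.48 FPKM in vehicle set 2 (3.59 ± 0.35 SE). Sdf2l1, an ER chaperone cofactor, followed with 2.75 ± 0.31, and Hspa5 with 2.10 ± 0.28 (limma adjusted p = 4.13e-05). With these 2 groups alone in the fit 3 of the 17 were called, so most calls of the list rest on the spread shared by all groups. Without tunicamycin library 1 there were 16.

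Among 16 IRE1-XBP1 targets 13 were higher and 0 lower with tunicamycin, with a median log2 difference of 0.52, led by Dnajb9 (1.5 ± 0.23 SE, limma adjusted p = 0.000193). Xbp1 itself, the factor that IRE1 splices, rose by 0.90 ± 0.22 on the log2 scale (limma adjusted p = 0.0112), and Sec24d, of the coat of vesicles that leave the ER, by 0.88 ± 0.16 (limma adjusted p = 0.00111). Of 23 tested PERK-ATF4 targets 15 were higher and 0 lower, with a median of 0.98. Chac1 led with 2.15 ± 0.45, followed by Trib3, an inhibitor of AKT and of ATF4 (1.92 ± 0.30), and Pycr1, of proline synthesis (1.81 ± 0.38, limma adjusted p = 0.00473). As for Gdf15, the PERK-ATF4 count was larger without libraries 4 and 5 of vehicle set 2, at 21 of 23. With tunicamycin and vehicle set 2 alone in the fit 0 genes of the IRE1-XBP1 and of the PERK-ATF4 list were called. Of 11 tested targets of p53, the other known driver of Gdf15, 2 were higher and 0 lower, with a median of -0.01. They were Bbc3, a trigger of apoptosis (0.58 ± 0.18, limma adjusted p = 0.0434), and the kinase gene Plk2 (0.35 ± 0.07, limma adjusted p = 0.00391). The mean log2(FPKM + 1) of 12 p53 targets was 3.64 to 3.82 in tunicamycin libraries, against 3.44 to 3.50 in libraries 1 to 3 of vehicle set 2 and 3.87 and 3.92 in its libraries 4 and 5. Without libraries 4 and 5, 3 of 11 were called higher, with a median of 0.08, and 4 of 11 were higher and 1 lower with tunicamycin against Ceapin-A7. In Ceapin-A7 and AA147 retinas 0 genes of these lists were called, and the medians of the ER chaperone list were -0.07 in each. In that list 0 of 17 genes had a positive difference with Ceapin-A7 and 5 of 17 with AA147. Over all tested genes the median was -0.0004 with Ceapin-A7 and 0.0092 with AA147. The share of all genes with a positive difference was not counted. The Ceapin-A7 median of the ER chaperone list was -0.02 without libraries 4 and 5 of vehicle set 2.

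**Figure D4:**
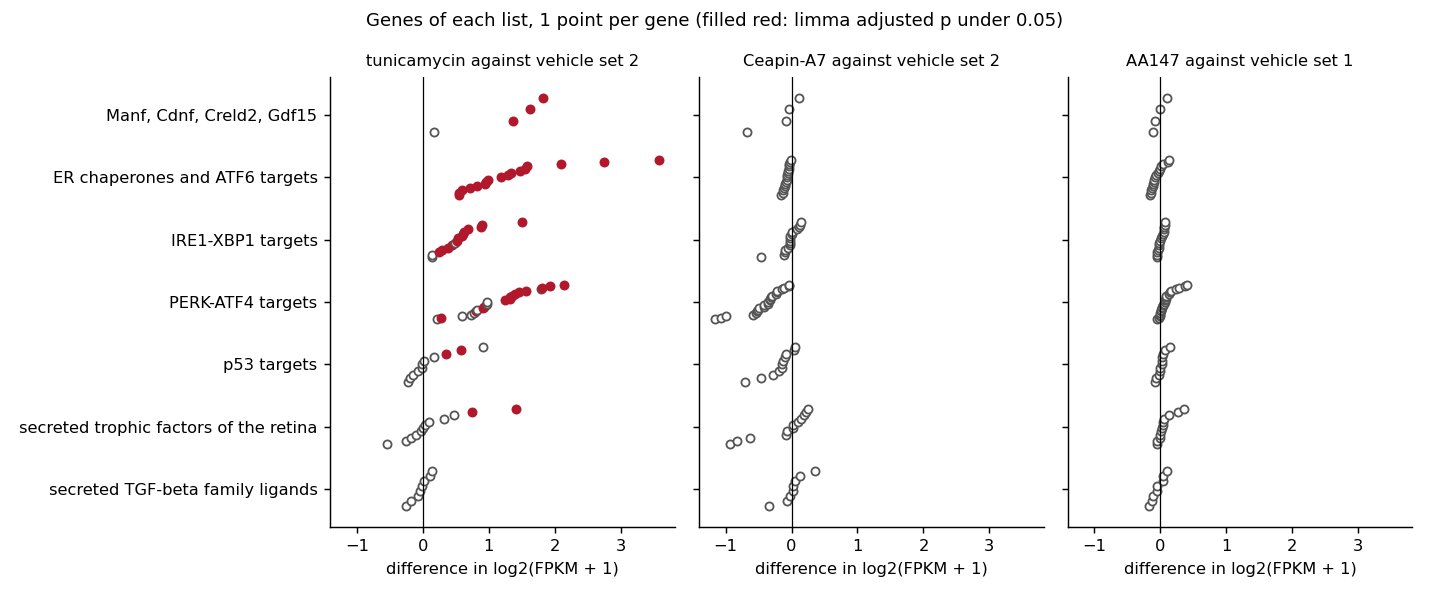
limma difference in log2(FPKM + 1) of each tested gene in 7 lists, for tunicamycin, Ceapin-A7 and AA147, each against its vehicle set (1 point per gene; filled red: adjusted p under 0.05; points are spread vertically for legibility). Called genes appear with tunicamycin only, 17 of 17 in the ER chaperone list and 0 of 8 among TGF-beta family ligands.

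Genes that handle these proteins were taken next. Of the 3 receptors that return escaped ER proteins such as MANF from the Golgi, Kdelr2 was higher (18.26 to 28.55 FPKM in tunicamycin retinas and 14.82 to 19.15 FPKM in vehicle set 2, log2 difference 0.37 ± 0.08 SE, limma adjusted p = 0.00644). Kdelr3 had a log2 difference of 0.49 ± 0.18 (limma adjusted p = 0.0856) and Kdelr1 of 0.11 ± 0.05 (limma adjusted p = 0.17). All 3 differences were positive, with a median of 0.37, and 2 of 3 were called against Ceapin-A7. Creld1, the membrane-bound paralog of Creld2, rose by 0.36 ± 0.10 (limma adjusted p = 0.0218), a call lost without libraries 4 and 5 of vehicle set 2. Nptn, reported as a receptor of MANF, had a log2 difference of -0.05 (limma adjusted p = 0.665) at a median of 136.4 FPKM with tunicamycin and 135.7 FPKM in vehicle set 2. Ret, which carries the signal of GFRAL, had -0.12 (limma adjusted p = 0.231), and Gfral was not analysed here. The proprotein convertases Furin, Pcsk5 and Pcsk6, of a family that cuts the GDF15 precursor, had -0.06, 0.10 and -0.14, and 0 of 3 were called.

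Other secreted factors of the retina were counted in the same way. Of 12 tested trophic factors 2 were higher with tunicamycin and 0 lower, with a median log2 difference of 0.02. They were Serpinf1, which encodes the anti-angiogenic factor PEDF (1.42 ± 0.23 SE, limma adjusted p = 0.000414), and Vegfa, the main vascular growth factor (0.75 ± 0.10, limma adjusted p = 5.66e-05). Of 8 tested TGF-beta family ligands, the wider family of Gdf15, 0 were called in either direction, and 1 without libraries 4 and 5 of vehicle set 2. Among markers of cell types in the tunicamycin retinas, 4 of 8 endothelial markers and 5 of 8 pigment epithelium markers were lower, and 1 endothelial marker and 1 of 6 cone markers were higher. The summed pigment epithelium markers were 25.28 to 92.29 FPKM in tunicamycin retinas and 123.1 to 257.51 FPKM in vehicle set 2, and their part in the members' differences was not tested. For rods, Muller glia, reactive gliosis, ganglion cells, bipolar cells, amacrine cells and microglia 0 markers were called against vehicle set 2. Against Ceapin-A7, 2 of 8 rod markers, 1 of 8 Muller glia markers and 1 of 6 bipolar markers were lower with tunicamycin and 1 of 8 gliosis markers was higher. The summed rod markers were 14128 to 17560 FPKM in tunicamycin retinas, against 18512 to 20620 FPKM in libraries 1 to 3 of vehicle set 2 and 14588 and 13671 FPKM in its libraries 4 and 5. Without those 2 libraries 3 of 8 rod markers were called lower.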

How the data were processed

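Polyadenylated RNA of mouse retina had been sequenced from stranded libraries on DNBSEQ after removal of cornea and lens, per the labels' protocols. The values the authors deposited are FPKM with 2 decimals, fragments per kilobase of transcript scaled to library size, in a table for each group. Per the submitters' processing notes, the authors used HISAT2 2.0.4 and RSEM 1.2.18, DESeq2 1.4.5 and the build GRCm39, in roles that are not given. FPKM holds no counts and tables of different gene lists may have been scaled apart, so no count model was run.

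Of the 18440 genes in all 5 tables, the 13117 that reached 1 FPKM in 5 or more of the 25 libraries were fitted as log2(FPKM + 1) with limma 3.58.1 (R 4.3.3), with a mean for each of the 5 groups and an intensity trend. This scale understates changes of low genes. Tests were two-sided, with Benjamini-Hochberg adjustment over all tested genes and a threshold of 0.05. Members were also tested one by one by exact permutation over 252 arrangements. The fit was tested on simulated data. The depth estimate used 693 single-transcript genes and assumes that 250 bases of a transcript cannot start a fragment, an assumption that was not tested. The mean distance of low values from whole fragments was 0.115 to 0.164, against 0.25 by chance, so whole fragments were not recovered. The best distance at other depths was 0.156 to 0.197, so the depth is only loosely determined. Other steps used pandas 2.3.3, numpy 2.4.6 and matplotlib 3.10.9 in Python 3.11.15.

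Named genes are the members, the 5 genes most correlated with each, the 3 largest called changes of each pathway list, and the whole lists of receptors, retention receptors, convertases and paralog. Members and lists were chosen with earlier results of these data known. The ratio tests and the fits without libraries 4 and 5 of vehicle set 2 or, for lists, tunicamycin library 1 were added after the values were seen. Alternatives were another pseudocount, no filter, quantile and median-ratio scaling, fewer groups in the fit, group-wise variance weights, the replicate number as a block, both vehicle sets as reference, and each library left out.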

Additional observations from a re-analysis of the deposited data

Results flagged for a closer look

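Cdnf in library 5 of vehicle set 1 stood apart from the rest of its group, at 1.86 FPKM against 1.64 to 1.70 FPKM in the other 4 libraries. Its gap to the nearest library was 0.719 of the group's range, just past the critical value for 5 libraries. It was the only one of 20 combinations of member and group to pass it, and chance alone marks about 1 in 20. All 5 values lie within the range of Cdnf in AA147 retinas, 1.58 to 2.26 FPKM.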

How the results depend on the processing

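Creld2 with tunicamycin against vehicle set 2 and Manf, Creld2 and Gdf15 with tunicamycin against Ceapin-A7 were called under every alternative. With only the compared groups in the fit, tunicamycin against vehicle set 2 called 86 genes in place of 1141, Manf kept 1.63 (adjusted p = 0.085) and Gdf15 1.37 (0.259), tunicamycin against Ceapin-A7 called 613 genes in place of 1746, and tunicamycin relative to AA147 77 in place of 136, with Manf at 1.70 (0.0727). With the groups of 1 gene list alone, tunicamycin called 389 genes against vehicle set 2 and 703 against Ceapin-A7, and Gdf15 stayed at 1.37 (0.105). Group-wise variance weights gave 432 genes for tunicamycin and 2 for Ceapin-A7, and called Creld2 (-0.59) and Gdf15 (0.81) between the vehicle sets, as did the 2 sets alone for Creld2 (-0.59) and a pseudocount of 0.1 FPKM for Gdf15 (1.44). With both vehicle sets as the reference, which mixes gene lists, 5743 genes were called for tunicamycin, 4384 for Ceapin-A7 and 2948 for AA147, and uncalled differences changed sign: Manf with Ceapin-A7 (0.080), and Creld2 (0.18) and Gdf15 (-0.40) with AA147. Without libraries 4 and 5 of vehicle set 2, Manf (0.067) and Gdf15 (0.020) with Ceapin-A7 and Gdf15 of AA147 relative to Ceapin-A7 (-0.017) changed sign, none called, and Gdf15 of tunicamycin relative to AA147 was called (2.06). The cause of these shifts was not tested.

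Leaving out each library gave, for tunicamycin against vehicle set 2, 611 genes (without tunicamycin library 1) to 1985 (without its library 3), Manf 1.27 to 1.91, Creld2 1.45 to 2.08, Gdf15 1.08 to 1.74 and Cdnf 0.12 to 0.22. For Ceapin-A7 it gave 0 to 14 genes, Manf -0.081 to 0.016, Creld2 -0.12 to -0.038, Gdf15 -0.88 to -0.37 and Cdnf 0.076 to 0.19, and for AA147 0 to 1 gene, Manf -0.18 to 0.0025, Creld2 -0.16 to -0.059, Gdf15 -0.022 to 0.034 and Cdnf 0.067 to 0.15. Tunicamycin against Ceapin-A7 gave 925 to 2874 genes (the same 2 libraries), Manf 1.30 to 1.95, Creld2 1.53 to 2.16, Gdf15 1.75 to 2.42 and Cdnf -0.024 to 0.083. Vehicle set 2 against set 1 gave 5721 to 6555 genes, Manf 0.13 to 0.32, Creld2 -0.63 to -0.54, Gdf15 0.51 to 1.02 and Cdnf -0.15 to -0.058. AA147 relative to Ceapin-A7 gave 0 to 1 gene, Manf -0.14 to 0.042, Creld2 -0.077 to 0.019, Gdf15 0.38 to 0.89 and Cdnf -0.080 to 0.034, and tunicamycin relative to AA147 gave 89 (without AA147 library 3) to 637 genes (without tunicamycin library 3), Manf 1.34 to 1.99, Creld2 1.56 to 2.19, Gdf15 1.07 to 1.74 and Cdnf 0.012 to 0.11.

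Same-numbered libraries did not deviate together, with correlations of -0.434 to 0.47, so the numbers were not taken as pairs. With the replicate number as a block, tunicamycin against vehicle set 2 called 1115 genes, with Manf at 1.63, Creld2 at 1.82 and Gdf15 at 1.37, and no member's call changed.

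FPKM without counts gives no counting error for single values, which matters most for Gdf15, at 0.25 to 0.81 FPKM in the Ceapin-A7, AA147 and vehicle set 1 libraries and in 3 of vehicle set 2, and for Cdnf.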
